A study of Mus musculus with 18 samples.

Results

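Flow sensing, gap junctions and lymphatic valves were followed through 9 genes in the 18 RNA-seq libraries of the study, namely Piezo1, Klf2, Klf4, Nos3, Foxc2, Gata2, Gja1, Gja4 and Gja5. They were chosen by symbol from the 23238 gene symbols of the count tables, and all 9 were found. Sorted cells came from the small intestine of adult C57BL/6J mice after removal of serosa, muscle layer, fat and Peyer's patches. The cell types were intestinal stromal cells (IntSCs), depleted of CD31+ endothelium, and the lymphatic endothelial cells (LECs) that line lacteals, the blind-ended lymphatic vessels of the villi. WT mice carried the tamoxifen-inducible Pdgfrb-CreERT2 and the Tomato reporter, and KO mice carried both together with floxed Lats1 and Lats2, the kinases of the Hippo pathway that restrain YAP and TAZ. IntSCs gave 6 WT and 5 KO libraries, and LECs gave 4 WT and 3 KO libraries. The study describes the IntSCs of its bulk RNA sequencing as PDGFRβ+ cells, sorted by their Tomato signal. When tamoxifen was given to these mice is not stated in the labels. The Cre is driven by a promoter of mural and stromal cells, so KO LECs are lymphatic cells taken from mice whose PDGFRβ+ cells were targeted, and not lymphatic cells targeted themselves. The antibodies named for the sort (CD45, TER-119, CD31 and podoplanin) do not separate lacteals from other lymphatics of the tissue.

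Endothelial cells read the flow of blood or lymph through mechanosensitive channels such as Piezo1 and through junctional receptors. Flow activates the kinase cascade MEKK3, MEK5 and ERK5, which acts through MEF2 transcription factors on Klf2 and Klf4, and these in turn act on genes such as Nos3. In lymphatics, disturbed flow together with the transcription factors Gata2, Foxc2 and Prox1 drives formation of the valves of collecting vessels, where connexins couple the cells through gap junctions. Lacteals are initial lymphatics, which as a rule have no valves.

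Total counts ranged from 5361250 to 10549233 per library, and 3 reads corresponded to between 0.281 and 0.632 CPM, which are counts scaled to a common library size. All levels use one normalisation over the 18 libraries. The number of genes with a read was 11848 to 14429 in WT IntSCs, 12383 to 15926 in KO IntSCs, 11490 to 12059 in WT LECs and 10576 to 11001 in KO LECs. Lymphatic identity was checked with Prox1, which lay between 33.3 and 114 CPM in the 7 LEC libraries and between 0 and 0.172 CPM in the 11 IntSC libraries. Pdgfra, a fibroblast receptor, lay between 207 and 536 CPM in IntSCs and between 0.310 and 23.3 CPM in LECs. The library WT LEC 1 held the most stromal RNA of the lymphatic libraries, with 2103 CPM summed over 9 stromal genes against 304 in the lowest. The sum also differed by genotype, with 630 to 2103 CPM in WT LECs and 304 to 571 CPM in KO LECs, without overlap. Of the 9 stromal genes, 0 had a KO minus WT difference above 0 in LECs, and 0 passed the test. The part of stromal RNA in the LEC differences between genotypes was not tested. Lats2 lay between 80.0 and 130 CPM in KO IntSCs and between 41.5 and 113 CPM in WT IntSCs, and whether the counted reads fall in the deleted exons is not known, so these counts do not check the deletion.

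Most of the genes tested differed between the cell types in WT mice, and none of them passed the test between genotypes. Of the 8 members tested between WT LECs and WT IntSCs, 6 had an adjusted p under 0.05, against 22.6% of all genes. Foxc2, Gja1, Gja4, Nos3 and Piezo1 were higher in WT LECs (5 of 8, against 10.3% of all genes), and Klf4 was higher in WT IntSCs (1 of 8, against 12.3%). The libraries of both groups did not overlap for 6 of 8 members, against 21.1% of all genes. Between KO LECs and KO IntSCs, 4 of 9 members passed, against 25.9% of all genes. Foxc2 and Gja1 were higher in KO LECs (2 of 9, against 9.11%), Klf4 and Gja5 were higher in KO IntSCs (2 of 9, against 16.8%), and those 4 were also the members whose groups did not overlap, against 32.3% of all genes. The share in the KO comparison is therefore nearer to that of all genes than the share in the WT comparison. The filter let in Gja5 only through its KO IntSC libraries, where 71 reads stood against 0 in KO LECs. It let in Foxc2 only through its LEC libraries, in both genotypes. The calls of these genes, and their lack of overlap, are thus not independent of the filter.

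For the LATS1/2 deletion, the count was 0 of 8 members in IntSCs by edgeR's quasi-likelihood test, where 1.47% of all genes passed. It was 0 of 8 in LECs, where 0.0658% of all genes passed. DESeq2 also called 0 members in both. Without adjustment, p was under 0.05 for 3 of 8 members in IntSCs (Gja1, Nos3 and Klf4), against 9.81% of all genes, and for 1 of 8 in LECs (Klf4), against 7.87%. No member had KO and WT libraries that did not overlap, in IntSCs (background 2.83%) or in LECs (background 9.93%). A test of whether the deletion effect differed between LECs and IntSCs (the interaction) called 0 of 9 members against 1.70% of all genes. DESeq2 called 1 member there, Gja1. The cell type comparisons share libraries with the genotype comparisons, so their values are given side by side without being set against each other.

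**Figure D1:**
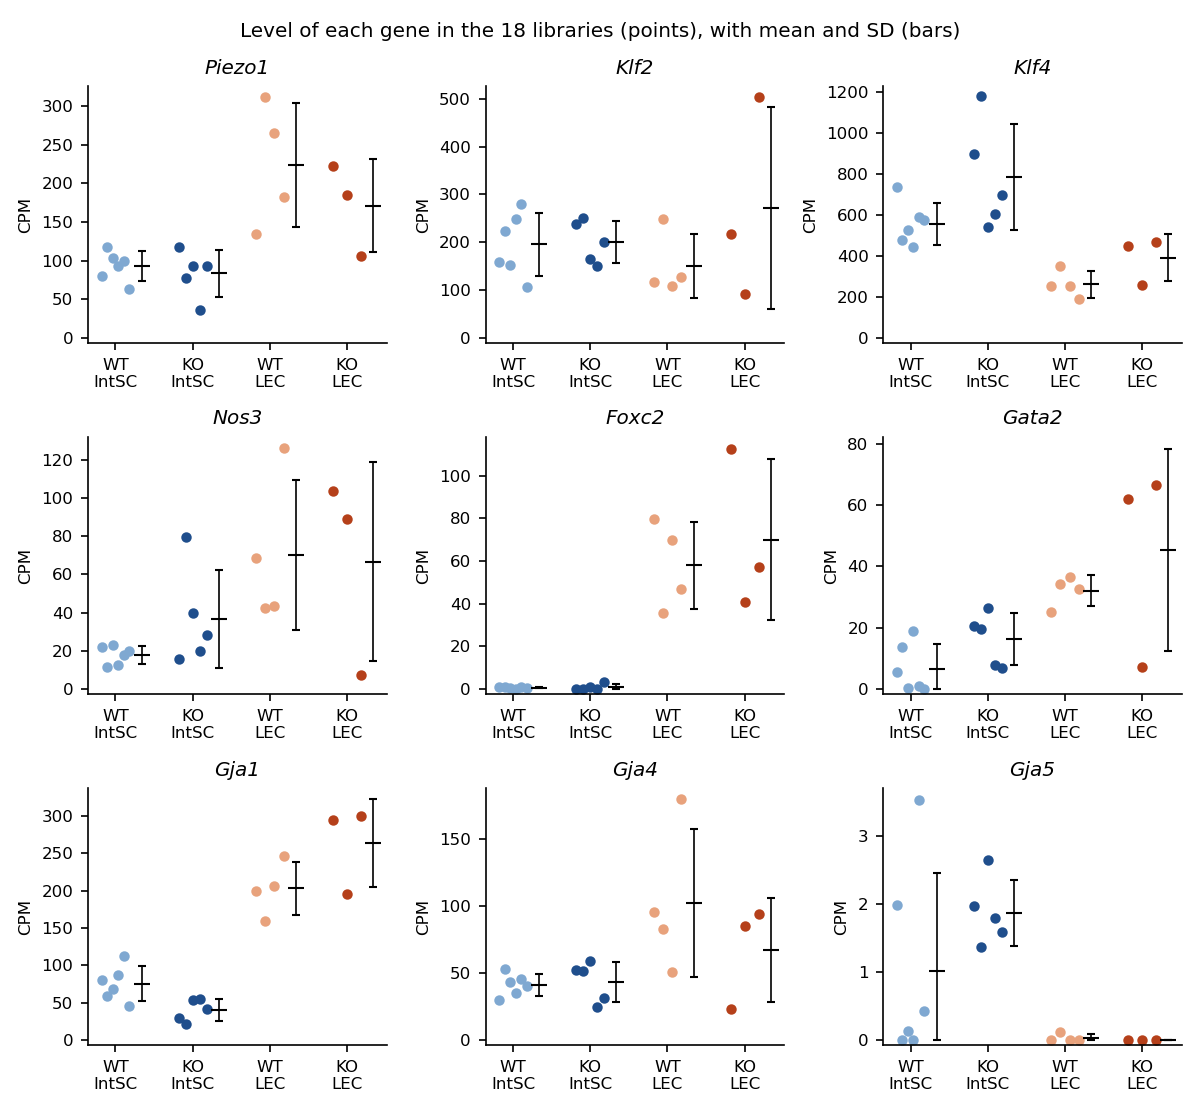
CPM of each gene (vertical axes, starting at 0, each with its own scale) in the 4 groups (horizontal axes). Points are libraries and black bars the mean with 1 SD, with the lower bar stopped at 0. Foxc2 lies at 35.7 CPM or more in every LEC library and at 3.45 CPM or less in every IntSC library, while for Klf2 all 4 groups overlap.

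**Figure D2:**
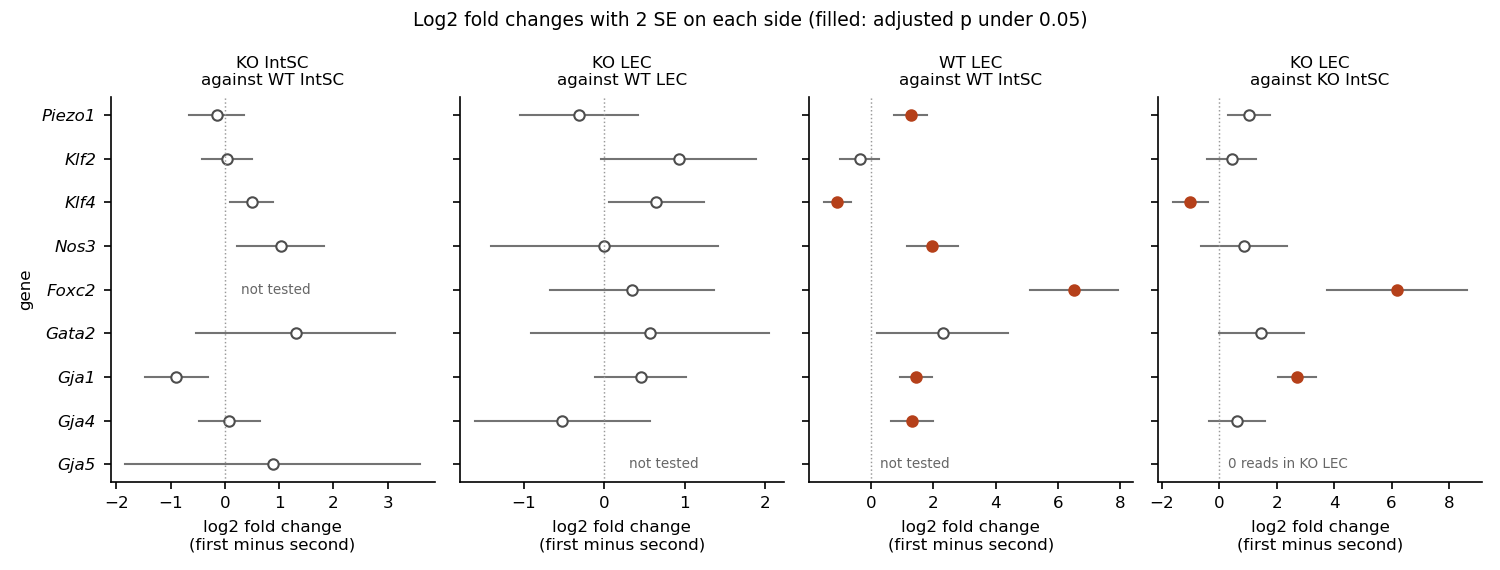
Log2 fold changes from edgeR (points) with 2 standard errors on each side (lines) for the 9 genes in 4 comparisons. Filled points had an adjusted p under 0.05, and a gene filtered out or with 0 reads in 1 group is written as such. Filled points occur in the 2 panels on the right, which compare the cell types.

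Piezo1 encodes a mechanically opened cation channel. The gene lies on chromosome 8, 122481698 to 122551329, on the minus strand of GRCm38. Piezo1 lay between 63.0 and 117.5 CPM in WT IntSCs, with a median of 96.1 CPM. It measured 118, 77.4, 93.0, 36.5 and 93.0 CPM in the 5 KO IntSC libraries. In WT LECs it measured 134, 312, 265 and 182 CPM, and in KO LECs 223, 185 and 105.5 CPM. All WT LEC libraries stood above all WT IntSC libraries, whereas the library KO LEC 3 fell within the range of the KO IntSC libraries. In WT mice the LEC level was higher by 1.27 ± 0.26 on the log2 scale (SE, edgeR adjusted p = 0.00246). In KO mice the difference was 1.03 ± 0.37 (adjusted p = 0.0627), and without KO LEC 3 it was 1.29 ± 0.37 (adjusted p = 0.0306). Between genotypes the difference was -0.15 ± 0.25 in IntSCs (adjusted p = 0.945, interval of 2 SE from -0.66 to 0.35) and -0.32 ± 0.36 in LECs (adjusted p above 0.99, interval from -1.05 to 0.41).

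The Piezo1 count cannot be read as Piezo1 alone. Ctu2, a gene of tRNA thiolation on the opposite strand, shares 2441 exonic bases with it at the 3′ end of Piezo1 (chromosome 8, 122481698 to 122484138), which is 24.6% of the Piezo1 exons and 47.3% of the Ctu2 exons. The count of Ctu2 divided by that of Piezo1 had a median of 0.992 and lay between 0.731 and 1.45 over the 18 libraries. In the library WT LEC 4, for example, the table gave 1819 reads to Piezo1 and 1820 to Ctu2. Ctu2 gave a difference of 1.31 ± 0.27 between WT LECs and WT IntSCs (adjusted p = 0.00210), close to that of Piezo1. Whether the counting used strand is not stated, so reads of the pair cannot be told apart, and the part of each gene in the shared count was not tested.

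**Figure D3:**
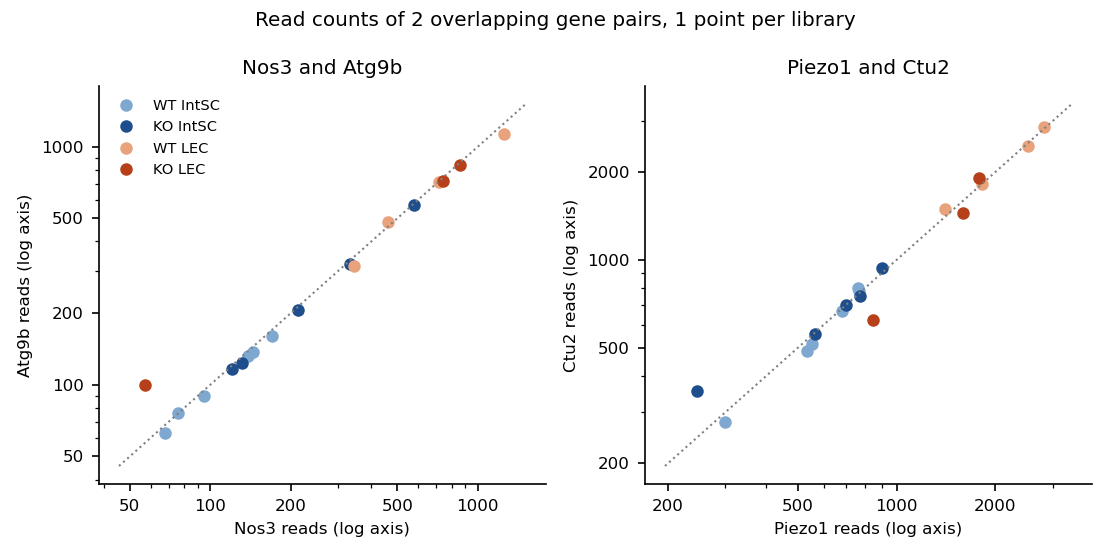
Reads counted for Nos3 and Atg9b (left) and for Piezo1 and Ctu2 (right), 1 point per library on log axes, with the line of equal counts dotted. Both pairs follow the line, and the point farthest from it in the left panel is KO LEC 3, with 57 Nos3 reads and 100 Atg9b reads.

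Klf2 and Klf4 are zinc finger transcription factors that laminar flow induces in endothelium, and Klf4 also responds to growth factors in fibroblasts and smooth muscle. Klf2 lies on chromosome 8, 72319062 to 72321654. The promoter of Klf2 is shown because MEF2 factors carry the flow signal to it. It is the 250 bases before the annotated start (GRCm38.p6, chr8:72318812-72319061, plus strand, from RefSeq), and the capitals mark the single match to the MEF2 consensus, whose first base lies 118 bases before the start.

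Klf2: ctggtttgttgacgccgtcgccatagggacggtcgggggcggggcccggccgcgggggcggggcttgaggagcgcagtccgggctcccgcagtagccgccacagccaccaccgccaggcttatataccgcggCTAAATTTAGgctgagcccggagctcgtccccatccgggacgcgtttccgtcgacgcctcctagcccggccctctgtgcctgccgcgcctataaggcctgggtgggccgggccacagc

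A MEF2 match on either strand occurred in 2.92% of the 32851 promoters of the same length in the RefSeq table. The match was found only by its letters, and no binding was measured here. RefSeq promoters were matched for 7 of the 9 members, with 8 windows because Gata2 has a pair of starts, and those of Foxc2 and Nos3 were not among them. The Klf2 window was the single one of the 8 with a MEF2 match. The KLF motif, searched as CACCC on both strands, occurred in the windows of Gja5, Gata2, Klf2 and Piezo1 and in 52.0% of all promoters.

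Klf2 lay between 106 and 280 CPM in WT IntSCs, with a median of 192 CPM. It measured 239, 251, 164, 149 and 200 CPM in KO IntSCs. In WT LECs it measured 117, 249, 109 and 127 CPM, and in KO LECs 218, 92.5 and 504 CPM. The 3 KO LEC libraries spanned the range of every other group, and WT LEC 2 stood apart from the remaining WT LEC libraries. The difference between genotypes was 0.04 ± 0.23 in IntSCs (adjusted p = 0.987), with an interval of 2 SE from -0.42 to 0.50. In LECs it was 0.92 ± 0.48 (adjusted p = 0.733), and the interval from -0.04 to 1.88 reaches well above 0. Without KO LEC 3 the LEC difference was 0.11. Between cell types it was -0.37 ± 0.31 in WT mice (adjusted p = 0.459) and 0.43 ± 0.43 in KO mice (adjusted p = 0.549). By their means the groups were ordered KO LEC, KO IntSC, WT IntSC and WT LEC, and each neighbouring pair overlapped.

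Klf4, on chromosome 4 from 55527137 to 55532475, was higher in IntSCs than in LECs in both genotypes. It lay between 445 and 735.5 CPM in WT IntSCs, with a median of 553 CPM. It measured 900, 1182, 541.5, 607 and 700 CPM in KO IntSCs, 255, 351, 256 and 191 CPM in WT LECs, and 448, 260 and 469.5 CPM in KO LECs. Every LEC library lay below every IntSC library of its genotype. The difference, LEC minus IntSC, was -1.08 ± 0.22 in WT mice (adjusted p = 0.00224) and -1.005 ± 0.30 in KO mice (adjusted p = 0.0342). The KO call was lost when KO IntSC 1, KO IntSC 2, KO IntSC 5 or KO LEC 2 was left out, with adjusted p values of 0.0693, 0.0635, 0.0525 and 0.09995. Between genotypes Klf4 gave 0.49 ± 0.20 in IntSCs (unadjusted p = 0.0207, edgeR adjusted p = 0.342) and 0.64 ± 0.30 in LECs (unadjusted p = 0.0478, edgeR adjusted p = 0.624). The KO mean was above the WT mean in both cell types, and in neither did the difference pass the adjusted test.

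Klf2 and Klf4 are often counted with the immediate early genes, which cells switch on within minutes of handling or a growth signal, so 22 such genes, Klf2 and Klf4 not among them, were summed. The sum lay between 7993 and 14730 CPM in WT IntSCs and between 11610 and 17730 CPM in KO IntSCs. It lay between 4976 and 5543 CPM in WT LECs and between 2561 and 2829 CPM in KO LECs. In LECs the sum of the early genes was thus lower in KO than in WT without overlap, while Klf2 and Klf4 had KO means above the WT means. Junb, a subunit of the AP-1 factor, fell in KO LECs by 1.59 ± 0.24 on the log2 scale (adjusted p = 0.0259), from 1285 ± 247.5 CPM (SD) over the 4 WT libraries to 406 ± 66.7 CPM over the 3 KO libraries. Leaving out any 1 of the 7 LEC libraries took the adjusted p for Junb to between 0.0511 and 0.204, and the replicate block took it to 0.135. The part of the early response in the levels of Klf2 and Klf4 was not tested.

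**Figure D4:**
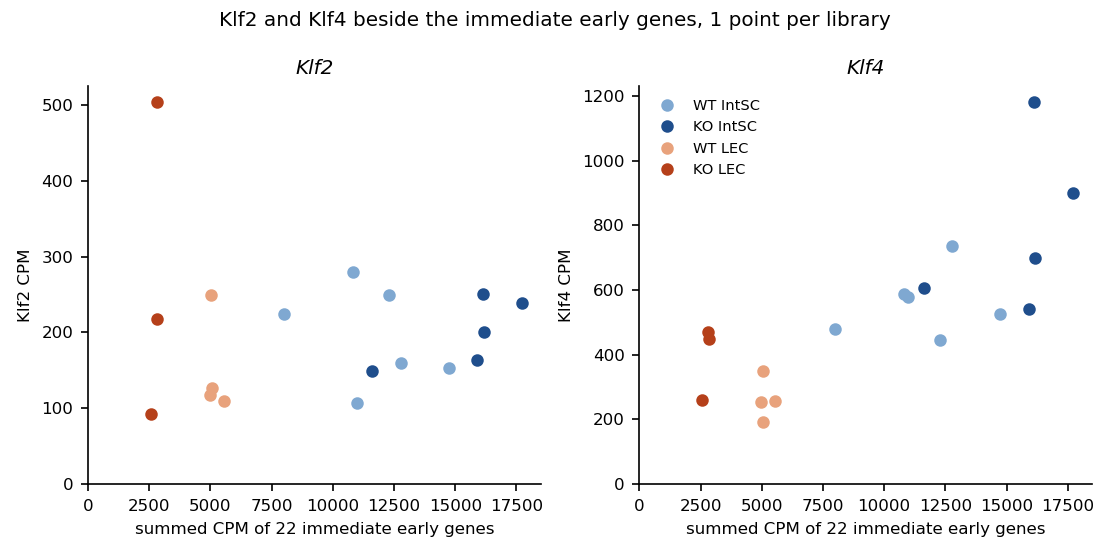
CPM of Klf2 (left) and Klf4 (right) against the summed CPM of 22 immediate early genes, 1 point per library, with all axes starting at 0. The KO LEC libraries have the lowest early gene sums, 2561 to 2829 CPM, and their Klf2 values run from 92.5 to 504 CPM.

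Nos3, the endothelial nitric oxide synthase, is a target of Klf2 in endothelium and lies on the plus strand of chromosome 5, 24364816 to 24384474. It lay between 11.7 and 23.0 CPM in WT IntSCs, with a median of 19.0 CPM. It measured 15.8, 79.4, 40.0, 19.7 and 28.2 CPM in KO IntSCs. In WT LECs it measured 68.4, 42.6, 43.3 and 126 CPM, and in KO LECs 104, 89.0 and 7.07 CPM. The WT groups did not overlap, and in KO mice the ranges did, with KO LEC 3 below every KO IntSC library. The level was higher in WT LECs by 1.97 ± 0.41 (adjusted p = 0.00242). In KO mice the difference was 0.86 ± 0.75 (adjusted p = 0.479). The difference between KO and WT LECs was -0.002 ± 0.71 (adjusted p above 0.99), with an interval of 2 SE from -1.42 to 1.41, and it was 0.53 ± 0.52 without KO LEC 3.

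In IntSCs Nos3 was 1.03 ± 0.40 higher in KO than in WT (unadjusted p = 0.0184, edgeR adjusted p = 0.323), and 3 of 5 KO libraries stood above all WT libraries. Endothelial genes were present in these libraries. Pecam1, the CD31 antigen by which endothelium was removed, measured 12.1 to 63.6 CPM in WT IntSCs and 38.0 to 137 CPM in KO IntSCs. In KO IntSC 1 to 5, in that order, Pecam1 measured 79.9, 137, 120, 38.0 and 65.5 CPM. In the same order Nos3 measured 15.8, 79.4, 40.0, 19.7 and 28.2 CPM. Cdh5, the endothelial cadherin, measured 0.337 to 29.8 CPM in WT IntSCs and 9.42 to 24.3 CPM in KO IntSCs. Over 12 blood endothelial markers, the summed level was 1430 to 2892 CPM in WT IntSCs and 1123 to 1708 CPM in KO IntSCs, with 1 of the 11 tested higher and 1 lower in KO. Cd34, which stromal cells also express, carried most of that sum, and without it the sum was 283 to 500 CPM in WT IntSCs and 352 to 849 CPM in KO IntSCs, with the higher median in KO. The single markers went both ways, with 7 of the 11 tested above 0 on the log2 scale, KO minus WT. Over 10 arterial markers the summed level was 185 to 1889 CPM in WT IntSCs and 495 to 896 CPM in KO IntSCs. Of these, 1 of 10 was higher in KO and 0 lower. The 1889 CPM belong to WT IntSC 6, where Gkn3 alone reached 1699 CPM, and the other 5 WT libraries, at 185 to 316.5 CPM, all lay below every KO library. Without Gkn3 the sum was 184 to 289 CPM in WT and 349 to 672 CPM in KO IntSCs. Without Gkn3 and Fbln5, a gene that fibroblasts also express, it was 102 to 181 CPM in WT and 135 to 263 CPM in KO IntSCs. The medians of that last sum were close, at 156.8 CPM in WT and 155.4 CPM in KO IntSCs. Cd34, Gkn3 and Fbln5 were left out after their values were seen. The part of endothelial RNA in the Nos3 level of IntSCs was not tested, and in bulk samples fewer cells of a type cannot be told apart from less RNA per cell.

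Nos3 also shares its 3′ end with a neighbour. Atg9b, an autophagy gene on the minus strand, overlaps it over 294 exonic bases (chromosome 5, 24384181 to 24384474), which is 7.12% of the Nos3 exons. The ratio of Atg9b to Nos3 counts had a median of 0.962 and ran from 0.898 to 1.75, although the shared stretch is a small part of either gene. Atg9b gave 1.96 ± 0.41 between WT LECs and WT IntSCs (adjusted p = 0.00248) and 1.06 ± 0.41 between KO and WT IntSCs (adjusted p = 0.316). The reads given to Nos3 may belong to either gene, and which of them was not tested.

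Foxc2 and Gata2 are transcription factors of lymphatic valves. Foxc2, an intronless gene at 121116171 to 121118895 on chromosome 8, was the most lymphatic of the members. It lay between 0 and 0.9145 CPM in WT IntSCs, with a median of 0.701 CPM, and measured 0, 0.137, 0.960, 0.149 and 3.45 CPM in KO IntSCs. In WT LECs it measured 79.5, 35.7, 69.7 and 46.7 CPM, and in KO LECs 112.5, 40.7 and 57.0 CPM. No LEC library came near an IntSC library. The difference was 6.53 ± 0.71 in WT mice (adjusted p = 6.11e-06) and 6.19 ± 1.22 in KO mice (adjusted p = 0.00464), and both calls held in each of the fits that left out 1 library. Between KO and WT LECs it was 0.34 ± 0.51 (adjusted p above 0.99), with an interval of 2 SE from -0.68 to 1.36. In IntSCs its counts were too low to be tested for a genotype difference.

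Gata2, on chromosome 6 from 88193891 to 88207032, was uneven among IntSCs. It measured 0 to 18.9 CPM in WT IntSCs, with a median of 3.26 CPM, and 3 of the 6 libraries were at 1.05 CPM or less. It measured 20.5, 19.7, 26.4, 7.90 and 6.91 CPM in KO IntSCs. In WT LECs the libraries were close together, at 25.1, 34.3, 36.7 and 32.5 CPM, and in KO LECs they were far apart, at 62.1, 7.33 and 66.6 CPM. All WT LEC libraries stood above all WT IntSC libraries, yet the difference of 2.30 ± 1.06 did not pass the test (adjusted p = 0.144). In KO mice the difference was 1.47 ± 0.75 (adjusted p = 0.185), and without KO LEC 2 it was 1.98 ± 0.59 (adjusted p = 0.0358). Between genotypes it was 1.31 ± 0.92 in IntSCs (adjusted p = 0.756) and 0.56 ± 0.74 in LECs (adjusted p above 0.99). The annotation has a long noncoding gene over Gata2, Gm38708, and another over Nos3, Gm15587, and neither has a row in the tables.

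The connexins form the channels of gap junctions, and the 3 members of the family behaved differently. Gja1 encodes connexin 43, found in fibroblasts, muscle and lymphatic endothelium, Gja4 encodes connexin 37 of arterial endothelium and lymphatic valves, and Gja5 encodes connexin 40, chiefly of arterial endothelium. The promoter of Gja1 is printed because Gja1 is the connexin with the largest genotype difference before adjustment. It covers chr10:56377050-56377299 of GRCm38.p6 on the plus strand, from RefSeq, and the capitals mark the single match to the AP-1 motif TGANTCA, 19 bases before the start, a motif that 6.75% of all promoters hold on either strand.

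Gja1: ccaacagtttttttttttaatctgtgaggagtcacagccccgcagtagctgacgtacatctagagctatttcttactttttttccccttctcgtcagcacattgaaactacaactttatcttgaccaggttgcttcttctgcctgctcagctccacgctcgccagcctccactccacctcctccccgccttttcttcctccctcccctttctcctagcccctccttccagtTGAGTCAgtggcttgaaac

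The same window also holds 1 match to the GATA motif AGATAA on the opposite strand, 135 bases before the start, as do 9.99% of all promoters. A match to TEAD, the partner of YAP and TAZ, searched as GGAATG, was found in 1 of the 8 windows, that of a Gata2 start, and in 12.6% of all promoters. The FOX motif TGTTTAC occurred in none of the 8 windows and in 3.17% of all promoters. These are matches of letters and say nothing about binding.

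Gja1, on chromosome 10 from 56377300 to 56390419, lay between 45.1 and 112 CPM in WT IntSCs, with a median of 74.1 CPM. It measured 29.3, 21.6, 54.1, 54.9 and 41.7 CPM in KO IntSCs. In WT LECs it measured 199, 160, 207 and 246 CPM, and in KO LECs 295, 196 and 300.0 CPM. LECs lay above IntSCs without overlap in both genotypes. The difference was 1.44 ± 0.26 in WT mice (adjusted p = 0.000871) and 2.70 ± 0.34 in KO mice (adjusted p = 0.000275), and it passed in every fit that left out 1 library.

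Between genotypes Gja1 was the member nearest to the threshold in IntSCs. The difference was -0.90 ± 0.29 (unadjusted p = 0.00570, edgeR adjusted p = 0.163), with an interval of 2 SE from -1.48 to -0.32, and 3 of 5 KO IntSC libraries lay below all WT IntSC libraries. The adjusted p ran from 0.0949 to 0.382 over the alternatives and the fits that left out 1 library. In LECs the difference was 0.45 ± 0.28 (adjusted p = 0.868), with 2 of 3 KO libraries above all WT libraries. The interaction, LEC effect minus IntSC effect, was 1.28 ± 0.43 (unadjusted p = 0.00639, edgeR adjusted p = 0.128). DESeq2 gave 1.39 ± 0.46 with an adjusted p of 0.0378, so the call depends on the tool.

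Gja4, on chromosome 4 from 127311420 to 127314039, lay between 30.1 and 53.0 CPM in WT IntSCs, with a median of 42.0 CPM. It measured 51.9, 51.2, 59.2, 24.5 and 31.1 CPM in KO IntSCs. It measured 95.3, 82.9, 50.8 and 180 CPM in WT LECs and 23.0, 84.9 and 93.9 CPM in KO LECs. One WT LEC library fell within the WT IntSC range, and KO LEC 1 was the lowest of all 18 libraries. The level was higher in WT LECs by 1.32 ± 0.34 (adjusted p = 0.0109), but without WT LEC 4, the highest library, the difference was 0.89 ± 0.33 (adjusted p = 0.07095). In KO mice it was 0.62 ± 0.49 (adjusted p = 0.422). Between genotypes it was 0.08 ± 0.28 in IntSCs (adjusted p = 0.981, interval from -0.49 to 0.65) and -0.52 ± 0.55 in LECs (adjusted p above 0.99).

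Gja5, on chromosome 3 from 97032402 to 97053634, was close to the limit of detection and was found in IntSCs. It measured 0 to 3.53 CPM in WT IntSCs, with a median of 0.278 CPM and 2 of 6 libraries at 0. In KO IntSCs all 5 libraries had reads, at 1.96, 1.37, 2.64, 1.79 and 1.59 CPM. One read was counted in the 4 WT LEC libraries together, and 0 reads in the 3 KO LEC libraries. Against a floor of 3 counts over the KO LEC group, Gja5 was at least 15.7-fold higher in KO IntSCs (71 reads, edgeR adjusted p = 0.0183). That call was lost when KO LEC 1, 2 or 3 was left out (adjusted p = 0.0600, 0.06015 and 0.0597). Gja5 also entered that test only through its KO IntSC libraries, so the call is not independent of the filter. In WT mice the 43 reads of IntSCs against 1 of LECs gave a ratio of 44.3, with an exact 95% interval for counting error from 7.54 to 1791. Between KO and WT IntSCs the difference was 0.88 ± 1.36 (adjusted p = 0.940), which covers both directions. The part of arterial endothelial RNA in the Gja5 counts of IntSCs, for which the marker sums are given above, was not tested. The same holds for 4930573H18Rik, a long noncoding gene that overlaps Gja5.

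The wider families, which include the members, were described by counts and medians beside those of all genes. Between genotypes 1.47% of all genes passed in IntSCs and 0.0658% in LECs, and 9.81% and 7.87% had an unadjusted p under 0.05. DESeq2 called 376 of 12421 genes in IntSCs and 309 of 10639 in LECs. Between cell types 10.3% were higher in WT LECs and 12.3% in WT IntSCs, and in KO mice 9.11% and 16.8%. Among 7 tested connexins and pannexins, 0 passed between genotypes in IntSCs, and 0 of 6 in LECs, with median differences of -0.25 and -0.72 against medians of 0.0026 and -0.03 over all genes. Unadjusted p was under 0.05 for 1 of them in IntSCs and 0 in LECs, and DESeq2 called 0 in both. Between cell types 2 of 6 connexins and pannexins were higher in WT LECs and 0 lower, both of them members, and in KO mice 1 of 8 was higher and 1 lower, again both members.

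Of the KLF family, 0 of 13 passed between genotypes in IntSCs (median 0.34, 3 with an unadjusted p under 0.05, 1 by DESeq2) and 0 of 12 in LECs (median -0.18, 1 unadjusted, 0 by DESeq2). Klf6, a member of the family that also responds early to injury, was higher in WT LECs than in WT IntSCs by 0.86 ± 0.21 (adjusted p = 0.00796), opposite in sign to Klf4, and these 2 were the KLF genes called among 13 tested. In KO mice 0 of 13 were higher in LECs and 2 higher in IntSCs, Klf4 and Klf9, the latter by 0.85 ± 0.24 (adjusted p = 0.0255). Klf9 lost that call without KO IntSC 1, KO LEC 2 or KO LEC 3 (adjusted p = 0.0579, 0.0539 and 0.0801). Klf5 had the lowest adjusted p of the family between KO and WT IntSCs, with 8.14 ± 9.45 CPM (SD) over the WT libraries, 34.8 ± 12.8 CPM over the KO libraries and an edgeR adjusted p of 0.109. It passed in 2 of 7 alternatives, DESeq2 (adjusted p = 0.0282) and the replicate block (0.014). It also passed in 1 of 11 fits that left out 1 IntSC library.

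Of the lymphatic valve genes, 2 of 34 rose in KO IntSCs and 0 fell (median 0.09, 6 with an unadjusted p under 0.05, 5 by DESeq2), and 0 of 36 passed in LECs (median 0.14, 8 with an unadjusted p under 0.05, 1 by DESeq2). The rises were those of Angpt2, a ligand of the Tie2 receptor, from 3.46 ± 2.84 to 22.9 ± 9.995 CPM (adjusted p = 0.0378), and Lama5, a laminin chain, from 13.9 ± 4.19 to 37.4 ± 8.13 CPM (adjusted p = 0.0328). The call held in 2 of 11 fits that left out 1 IntSC library for Angpt2 (adjusted p up to 0.124) and in 4 of 11 for Lama5 (up to 0.117). When the replicate number was a block, the adjusted p was 0.0670 for Angpt2 and 0.126 for Lama5, and with all 4 groups in one fit that of Lama5 was 1. Between cell types 21 of 38 were higher in WT LECs and 4 in WT IntSCs (all genes: 10.3% and 12.3%). In KO mice 19 and 6 of 38 were (all genes: 9.11% and 16.8%). Flt4, the VEGF-C receptor VEGFR3, reached 1450 ± 112 CPM (SD) in WT LECs against 3.86 ± 2.11 CPM in WT IntSCs. Fn1, fibronectin, a matrix protein of the valve leaflet, was lower in WT LECs by 1.89 ± 0.30 on the log2 scale (adjusted p = 0.000285). In LECs the BMP9 receptor genes Eng and Acvrl1 had KO minus WT differences of -1.08 ± 0.30 and -1.715 ± 0.50, with edgeR adjusted p values of 0.291 and 0.348. With all 4 groups in one fit these were 0.0101 and 0.0147, and DESeq2 gave 0.0333 for Eng. Neither gene was called in any of the 7 fits that left out 1 LEC library.

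Of the genes of flow sensing and the MEK5-ERK5-MEF2 cascade, 0 of 23 passed between genotypes in either cell type, with medians of 0.19 in IntSCs (3 unadjusted, 2 by DESeq2) and -0.16 in LECs (3 unadjusted, 1 by DESeq2). Between cell types 8 of 24 were higher in WT LECs and 0 lower (all genes: 10.3% and 12.3%). In KO mice 6 were higher and 2 lower (all genes: 9.11% and 16.8%). Kdr, the VEGF receptor of the junctional flow sensor, was higher in WT LECs by 5.22 ± 0.33 (adjusted p = 2.99e-08). Krit1, a scaffold of the CCM complex, which restrains MEKK3 and with it Klf2 and Klf4 in endothelium, stood out by its low counts in KO LECs. Its reads numbered 239, 191, 342 and 4 in the WT LEC libraries and 1, 4 and 1 in the KO LEC libraries. WT LEC 4 had the same number of reads as the highest KO library, and the LEC difference did not pass by edgeR (adjusted p = 0.464), whereas DESeq2 gave an adjusted p of 0.00317. In IntSCs Krit1 stood at 39.1 ± 10.2 CPM (SD) over the WT and 37.7 ± 15.1 CPM over the KO libraries, and its interaction of genotype and cell type passed (adjusted p = 0.00674).

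Of the flow-induced genes, 1 of 18 rose in KO IntSCs (median 0.49, 10 with an unadjusted p under 0.05, 3 by DESeq2) and 0 of 16 passed in LECs (median -0.06, 2 with an unadjusted p under 0.05, 1 by DESeq2). The rise was that of Cyp1b1, a cytochrome P450 enzyme, from 30.1 ± 9.77 to 107 ± 45.7 CPM (adjusted p = 0.00256), a call lost with all 4 groups in one fit (1.82 ± 0.64, adjusted p = 0.479). Between cell types 8 of 18 were higher in WT LECs and 3 lower (all genes: 10.3% and 12.3%). The same counts, 8 and 3 of 18, were found in KO mice (all genes: 9.11% and 16.8%). Aqp1, a water channel, was among them, with means ± SD of 13160 ± 2130 CPM in WT LECs, 11570 ± 1715 CPM in KO LECs and 47.6 ± 24.0 CPM in WT IntSCs. Slc9a3r2, a scaffold protein, was at 695 ± 66.1 CPM in WT LECs and 341 ± 56.9 CPM in KO LECs, with an adjusted p of 0.200 by edgeR and 0.00291 by DESeq2.

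Of the nitric oxide genes, 0 of 19 passed between genotypes in IntSCs (median 0.06, 3 unadjusted, 0 by DESeq2) and 0 of 16 in LECs (median -0.21, 3 unadjusted, 1 by DESeq2). Between cell types 4 of 18 were higher in WT LECs and 2 lower (all genes: 10.3% and 12.3%). In KO mice 1 was higher and 3 lower (all genes: 9.11% and 16.8%). Cav1, the caveolin that binds and holds back Nos3, was higher in WT LECs by 3.79 ± 0.29 (adjusted p = 1.98e-07) and in KO LECs by 3.002 ± 0.38 (adjusted p = 0.000319). Akt1, a kinase that activates Nos3, was higher in WT LECs by 1.16 ± 0.24 (adjusted p = 0.00211).

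Across the 18 libraries, the genes whose log2(CPM + 1) followed each member most closely were listed as a description. The libraries differ first by cell type, so for members that separate the cell types these correlations mostly carry that difference. Foxc2 was followed most closely by Ackr2, a chemokine-scavenging receptor of lymphatic endothelium (Pearson r = 0.983), and by Fgl2 (r = 0.981). Gja1 was followed by Palm (r = 0.957) and Glod4 (r = 0.941), and Gja4 by Rph3al (r = 0.865) and Hhex (r = 0.846), a homeobox factor of endothelium. Klf4 was followed by Tnrc18 (r = 0.877) and by the immediate early gene Ier5 (r = 0.871), and Klf2 less closely by Swap70 (r = 0.786) and Wdr41 (r = 0.782). Klf2 did not separate the cell types, and KO LEC 3 was the highest library both for Klf2 (504 CPM) and for Swap70 (52.9 CPM). Gata2 was followed by Capn12 (r = 0.815) and Dazap2 (r = 0.808). The gene closest to Nos3 was its overlapping neighbour Atg9b (r = 0.987), before the flow-sensing channel gene Trpv4 (r = 0.861), and the gene closest to Piezo1 was its neighbour Ctu2 (r = 0.971), before Plk2 (r = 0.925). Gja5 was too low for such a description.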

How the data were processed

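Each of the 18 libraries came with 1 table of raw counts that the authors deposited, whole-number reads per gene symbol, not normalised. Per the labels, total RNA went into a Lexogen Quant-Seq kit. The study's methods name TopHat and Cufflinks, and the submitters' processing notes name Bowtie2, edgeR and mm10. The program that counted reads, its annotation and its strand setting are not given in the sources used here. Each table held 23282 rows, and the 35 symbols with more than 1 row were summed.

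Titles gave each library its group and number. The test was the quasi-likelihood test of edgeR 4.0.16 under R 4.3.3 (TMM factors, filterByExpr, robust glmQLFit and glmQLFTest, Benjamini-Hochberg adjustment over all genes tested, threshold 0.05). Each fit held the 2 groups compared, except the interaction, which held all 4. Standard errors were derived from the quasi-likelihood F. The procedure was tested on simulated counts. CPM use the counts as deposited, scaled by TMM over all 18 libraries, and cannot be compared between genes. Intervals of 2 SE come from the fits and include the spread between libraries. The exact interval and the floors of 3 counts cover counting error only, and no molecular identifiers are named that would remove PCR copies.

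The members and gene lists were chosen with earlier results of these data known. Named genes from each list were those with the smallest adjusted p past the threshold and a mean of at least 5 CPM (up to 4 per direction), or the 2 with the smallest p where none passed, or for early genes and markers the 3 most abundant, and those given here are a part of them. Prox1, Pdgfra, Pecam1 and Cdh5 are defining markers, and Lats2 the targeted gene, chosen apart from that rule. Alternatives were RLE factors, DESeq2 1.42.0, every gene with 1 read or more, genes averaging 10 reads or more, the replicate number as a block, all 4 groups in one fit, the count without Rn45s (the ribosomal RNA precursor), and each library left out. The study's legends describe libraries from separate mice over several experiments; which library belongs to which experiment is not labelled, so p-values measure the spread between these libraries and the experiment was not tested. Positions come from RefSeq and GENCODE vM21 on GRCm38, the assembly that mm10 names. Promoters are the 250 bases before each RefSeq start. A gene of the lists is not reported here.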

Additional observations from a re-analysis of the deposited data

Results flagged for a closer look

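Among 27 sets of values (1 gene in 1 group of 4 to 6 libraries), 3 held a library far from the others. The rule took the gap to the nearest library as a share of the range. Its chance count of about 1.35 assumes normal values, which sets near 0 reads do not follow, so the counts cannot be compared. Klf2 was at 249.2 CPM in WT LEC 2, against 109 to 127 CPM in the other WT LEC libraries. Foxc2 was at 3.453 CPM in KO IntSC 5, against 0 to 0.960 CPM in the other KO IntSC libraries. Gja5 was at 0.1234 CPM in WT LEC 2, which is 1 read, against 0 in the other 3 WT LEC libraries. With 0 in all the others, any read meets the rule.

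For 6 list genes the effect of the deletion differed between LECs and IntSCs by the interaction test of edgeR, given as the log2 LEC effect minus the IntSC effect. Junb, with -2.141 (adjusted p = 0.00203), fell in KO LECs. Krit1, with -6.256 (adjusted p = 0.00674), was at 0.226 ± 0.163 CPM in KO LECs (SD, n = 3). Slc9a3r2 gave -1.686 (adjusted p = 0.0183). Emilin1, an elastic fibre protein of lymphatic valves, gave 1.879 (adjusted p = 0.0105). Lama5 gave -7.236 (adjusted p = 0.0430) and kept the call in 4 of 18 fits that left out 1 library (adjusted p up to 0.120). Lama5 had a mean of 0.0931 CPM in KO LECs, and the WT LEC libraries measured 20.1, 2.47, 0.0937 and 0.100 CPM. Pde5a, a phosphodiesterase of cyclic GMP, gave -6.446 (adjusted p = 0.0430) and kept the call in 2 of 18 such fits (up to 0.105). Pde5a had a mean of 0.0414 CPM in KO LECs, and the WT LEC libraries measured 5.61, 15.8, 0.375 and 0 CPM. For both genes the WT and KO LEC libraries overlapped. When the replicate number was a block, the calls of Krit1, Slc9a3r2, Emilin1, Lama5 and Pde5a were lost (adjusted p = 0.438, 0.140, 0.0722, 0.857 and 0.785), and that of Junb was not.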

How the results depend on the processing

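With 3 to 6 libraries per group and wide spread in KO LECs, differences within the intervals given could not be resolved. The counts of members called were 0 under every alternative for both genotype comparisons. In WT mice 6 members were called (4 with the replicate block, which lost Gja4 and Nos3, adjusted p = 0.111 and 0.0527, and 5 or 6 with 1 library left out). In KO mice 4 were called, but 2 with the replicate block, which lost Klf4 and Gja5 (adjusted p = 0.172 and 0.212), 5 with DESeq2, which added Piezo1 (adjusted p = 0.0499), 3 with either other filter, and 3 or 4 with 1 library left out. With all 4 groups in one fit the KO count was again 4, with Piezo1 added (adjusted p = 0.0273) and Gja5 lost (adjusted p = 0.0510). For the interaction DESeq2 called 1. Libraries with the same number had deviations from their group means that correlated between -0.0623 and 0.0800. Between WT LECs and WT IntSCs these correlations were 0.0226 to 0.0436, against a mean of -0.00704 for other pairs. Between KO LECs and KO IntSCs they were -0.0173 to 0.0423, against -0.000926. With 4 and 3 such pairs, the values cannot tell whether the numbers pair the libraries.

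Signs turned for values that passed under no setting. Some were near 0 in the main fit, whereas Klf2 in KO LECs against KO IntSCs was 0.43, Foxc2 in LECs 0.34 and the Foxc2 interaction -0.33. These turned without KO LEC 3, KO LEC 1 and KO IntSC 5, in that order. In KO against WT IntSCs, Klf2 was -0.0709 with the block and ran from -0.0816 to 0.17 with 1 library left out, Gja4 from -0.0558 to 0.23 and Piezo1 from -0.31 to 0.0349. In KO against WT LECs, Nos3 was 0.03099 with RLE factors, 0.03102 with DESeq2, 0.0012 without a filter, 0.0014 with a mean count of at least 10, and from -0.45 to 0.53 with 1 library left out, and Foxc2 ran from -0.15 to 0.62. In KO LECs against KO IntSCs, Klf2 ran from -0.37 to 0.84. For the interaction, Klf4 was -0.0674 and Foxc2 1.15 with the block, and with 1 library left out Klf4 ran from -0.0569 to 0.31, Foxc2 from -0.85 to 1.18 and Piezo1 from -0.47 to 0.0250. The cause was not tested.

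Calls over all genes moved more. The IntSC count of 183 became 376 with DESeq2, 122 with the block and 27 with all 4 groups. The LEC count of 7 became 309, 3 and 538, and 32 and 20 with the other filters. With the block 2763 became 1596, 3302 became 895 and the interaction's 238 became 16, and DESeq2 gave 1023 for the interaction. RLE factors moved the median interaction over all genes from -0.24 to -0.13.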
